A study of Rattus norvegicus with 24 samples.

Results

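Voltage-gated sodium channel subunits were followed in the supraoptic nucleus of the rat. Its large magnocellular neurons synthesise vasopressin and oxytocin and send their axons to the posterior pituitary, where both hormones enter the blood. The members were the 8 genes Scn1a, Scn2a, Scn3a, Scn8a, Scn9a, Scn2b, Scn3b and Scn4b, taken by a rule that names them. That rule uses no measured value, but the names were chosen with earlier results of these data known. Every probe set whose single gene symbol in the platform annotation was one of these names was taken, which gave 10 of the 31042 probe sets that are not array controls. A probe set is a group of short probes for 1 transcript, and its signal is the deposited intensity. Scn2b and Scn3b had 2 probe sets each and the other genes had 1. Each Affymetrix array carried RNA pooled from 5 Sprague Dawley rats. The female set compared 4 pools of euhydrated controls with 4 pools of rats kept without water for 72 hours with free access to food. The male set compared 5 control pools with 5 pools dehydrated for 3 days, from rats aged 10 to 12 weeks. No age was given for the females, and the labels name no transgene or drug. The array sets differed in sex, RNA extraction, labelling and signal processing, and these cannot be told apart, so dehydration was compared with control within each set. The submitters treat the pools of a group as replicates of either kind, biological or technical. The p-values therefore measure the spread between arrays, which need not be the spread between separate pools or between rats. A pool below is the RNA on 1 array, and n counts arrays. The arrays of lactating rats were not analysed here.

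A sodium channel is built from a large alpha subunit, which forms the pore and opens on depolarisation, and smaller beta subunits, which modify gating, carry the channel to the membrane and act as cell adhesion molecules. The channels gather at the axon initial segment, where the action potential starts, and their number and type set how readily a neuron fires. Dehydration raises the firing of magnocellular neurons, and their sodium channels shape the spikes that drive hormone release.

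The tissue label was checked on the hormone genes of the nucleus, and 1 array went against it. The hormone genes Avp and Oxt gave signals of at least 3001 on all 18 arrays used. Dehydrated female array 5 was left out: its Avp signal was 50.6 and its Oxt signal 26.0. Its signal of Xist, which is transcribed from the inactive X chromosome, was 2.59, against 462 to 694 on the other female arrays. The Y-linked Eif2s3y read 242 on it, where the other female arrays gave at most 8.94 and the male arrays up to 391. Its Scn1a and Scn4b signals, 883 and 783, lay far above those of the other arrays, while its Scn9a signal of 60.5, its Scn2a signal of 154 and its Scn3b signals of 206 and 235 lay below them. With that array included, no member passed in females and the smallest limma adjusted p was 0.68. The log2 difference of Scn1a then went from -0.61 to -0.02 and that of Scn4b from -0.58 to 0.15. All values that follow are without it.

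In males, Scn3b, which encodes the beta-3 subunit, rose with dehydration, and Scn9a and Scn4b, which encode the alpha subunit Nav1.7 and the beta-4 subunit, fell. These 3 of the 8 probe sets tested passed a limma adjusted p of 0.05. The rise was about 1.28-fold, and the falls took Scn9a to 0.749 and Scn4b to 0.64 of control. In females no member passed, although Scn4b differed by nearly as much as in males and its groups did not overlap. No member differed between the female and male dehydration effects after adjustment.

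The counts are read against all 21729 probe sets tested in each set. In males 8.32% of all probe sets were higher at an adjusted p under 0.05, beside 1 of 8 member probe sets, and 9.38% were lower, beside 2 of 8. In females 2.96% passed, beside 0 of 8. At an unadjusted p under 0.05, 4 of the 8 member probe sets differed in females (Scn3a higher, and Scn1a, Scn9a and Scn4b lower), beside 19.0% of all. The groups did not overlap for 12.3% of all probe sets in females and 12.8% in males, and for 1 member probe set in each set: Scn4b in females and 1 probe set of Scn3b in males. The median log2 difference of the members was -0.05 in females, against -0.03 over all probe sets, and 0.13 in males, against -0.04. Centring each array on its median instead of scaling it changed the balance of all calls, from 384 higher and 259 lower to 348 and 114 in females, and from 1808 and 2038 to 2710 and 1091 in males.

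**Figure D1:**
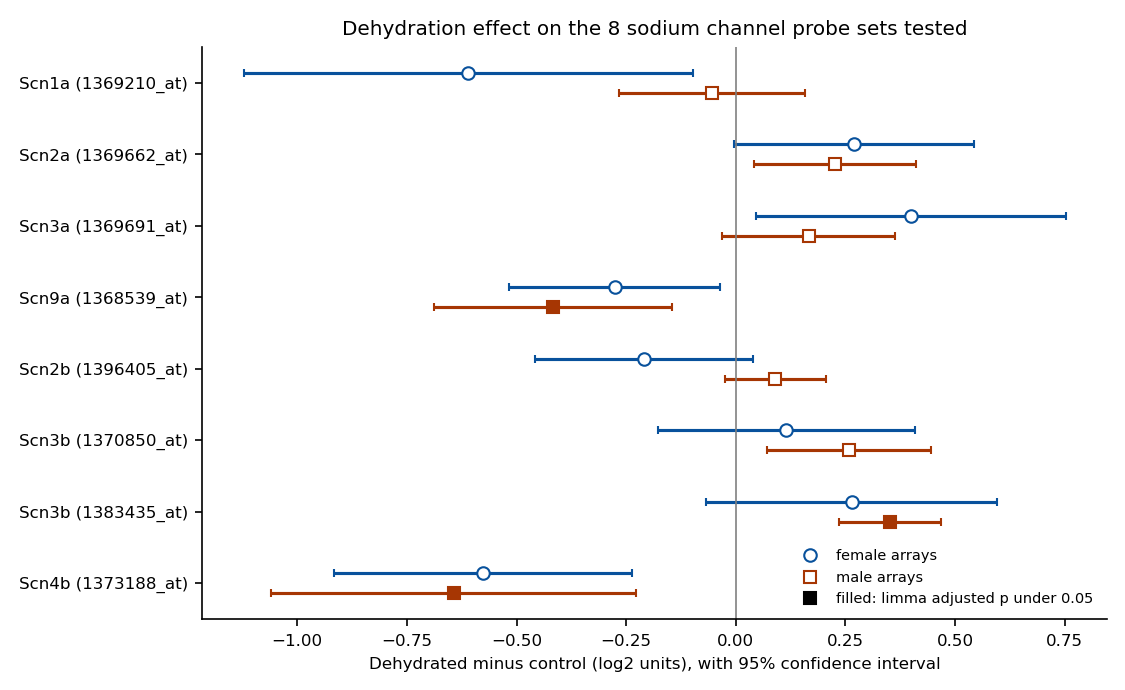
Log2 difference of dehydrated minus control (x axis) for each of the 8 sodium channel probe sets tested (y axis), with 95% confidence intervals from limma, for the female arrays (circles) and the male arrays (squares). Filled symbols, which passed an adjusted p of 0.05, are seen only for Scn9a, Scn3b (1383435_at) and Scn4b in males.

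Among the alpha subunits, Scn2a and Scn3a, which encode Nav1.2 and Nav1.3, gave the same picture in both sets: somewhat higher means under dehydration that did not pass. Nav1.2 is abundant in unmyelinated axons and young initial segments, and Nav1.3 is best known from the developing nervous system. The signal of Scn2a in the 4 female controls was 286, 355, 293 and 332, and in the dehydrated females it was 362, 351, 473 and 351. The third dehydrated pool was the highest, and the groups overlapped only through the control at 355. The mean was 317 ± 32.8 (SD, n = 4) in controls and 384 ± 59.5 (SD, n = 4) in dehydrated pools, a log2 difference of 0.27 with a 95% interval of -0.00 to 0.54 and a limma adjusted p of 0.27. Without dehydrated pool 3 the difference was 0.17, with a limma adjusted p of 0.42.

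In males Scn2a read 284, 228, 281, 279 and 277 in controls and 345, 353, 261, 317 and 311 in dehydrated pools. Every dehydrated pool but the third, at 261, lay above all controls. The log2 difference was 0.23 ± 0.09 (SE), and the limma adjusted p was 0.086. Without that pool the difference was 0.29 and passed, with a limma adjusted p of 0.0198. Of the 10 fits that left out 1 array, only that 1 passed. Across them the difference went down to 0.17 and the limma adjusted p up to 0.20. Of 9 other settings 2 passed: median centring (0.30, limma adjusted p = 0.031) and array weights (0.25, limma adjusted p = 0.0488).

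For Scn3a the female controls read 141, 212, 139 and 159 and the dehydrated females 179.7, 206, 276 and 203. All 4 dehydrated pools lay above the control mean, but the second control lay above 3 of them. The means differed by 0.40 ± 0.16 (SE) on the log2 scale, with a limma adjusted p of 0.21. In males the Scn3a signals were 316, 225, 282, 249 and 289 in controls and 314, 320.2, 255, 310.1 and 325 in dehydrated pools. Most of the range was shared, and the log2 difference of 0.17 ± 0.09 (SE) had a limma adjusted p of 0.24.

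Scn2a and Scn3a also went up and down together from array to array. Over the 18 arrays, with each set centred on its mean, Pearson's r of their log2 values was 0.89 (Spearman's rho 0.82), with permutation p-values of 1e-05, the smallest that 100000 resamples within sets can give, and 4e-05. Adjusted over the 28 pairs of member probe sets, these were 0.00028 and 0.00112. The correlation was 0.94 within the 8 female arrays and 0.85 within the 10 male arrays. It was 0.80 without the 2 arrays farthest from the Scn2a median, and 0.85 after each group was centred on its own mean, so that it did not rest on the difference between dehydrated and control. Of the other pairs, Scn2a with the 1370850_at probe set of Scn3b passed after adjustment (r = 0.74, rho = 0.73, adjusted permutation p = 0.0104 and 0.0234). That r was 0.62 without the 2 farthest arrays and 0.65 after centring on group means. The other Scn3b probe set, 1383435_at, did not share this: its r with Scn2a was 0.43 (adjusted permutation p = 0.21), and -0.05 after centring on group means. Scn1a with Scn2b reached r = 0.74 and rho = 0.54, but did not pass (adjusted permutation p = 0.0572 and 0.122), and r was 0.42 without the 2 farthest arrays. The pairs are measured on the same arrays, so they share RNA quality and the makeup of the dissected tissue, whose part in these correlations was not tested.

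**Figure D2:**
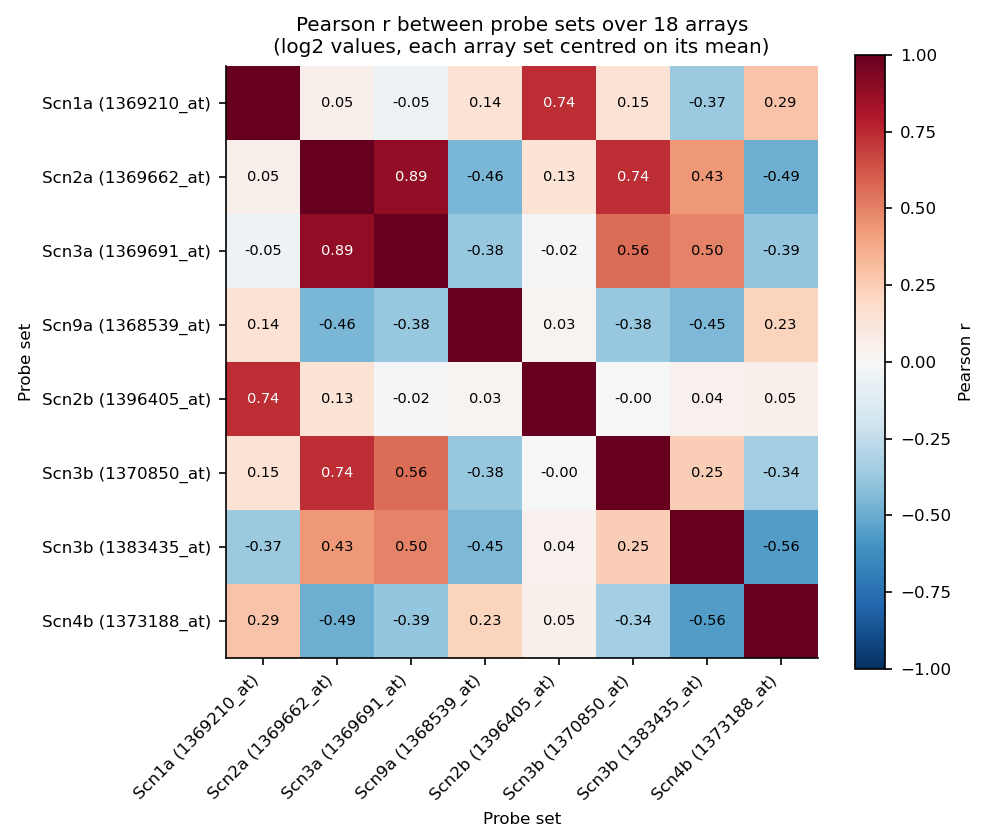
Pearson's r between the log2 values of each pair of the 8 sodium channel probe sets (both axes) over 18 arrays, each array set centred on its mean, with colour from -1 (blue) to 1 (red). The pair of Scn2a and Scn3a has the highest value, 0.89, and Scn3b (1383435_at) with Scn4b the lowest, -0.56.

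In the RefSeq annotation of the rat assembly GRCr8, Scn3a and Scn2a are immediate neighbours on chromosome 3 and are transcribed away from each other. The 250 bases before their annotated starts are shown because these are the members that moved together, and those of Scn9a and Scn4b because these fell in males. The windows of Scn3a and Scn2a do not meet: the first ends at base 70666448 and the second begins at base 70710706. The table of promoters held 6 of the 8 members. Capitals mark any match to the motifs searched, and the sequences run 5′ to 3′ on the strand of the gene.
Scn2a, chr3:70710706-70710955, plus strand: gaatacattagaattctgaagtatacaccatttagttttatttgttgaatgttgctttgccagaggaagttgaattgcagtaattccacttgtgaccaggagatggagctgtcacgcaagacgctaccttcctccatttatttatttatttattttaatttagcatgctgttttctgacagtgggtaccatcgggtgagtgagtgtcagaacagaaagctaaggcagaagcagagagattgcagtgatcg
Scn3a, chr3:70666199-70666448, minus strand: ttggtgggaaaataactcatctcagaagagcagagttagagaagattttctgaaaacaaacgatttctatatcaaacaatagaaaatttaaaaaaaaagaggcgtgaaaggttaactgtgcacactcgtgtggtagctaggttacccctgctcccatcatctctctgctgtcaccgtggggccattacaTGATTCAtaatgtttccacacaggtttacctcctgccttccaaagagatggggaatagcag
Scn9a, chr3:71701378-71701627, minus strand: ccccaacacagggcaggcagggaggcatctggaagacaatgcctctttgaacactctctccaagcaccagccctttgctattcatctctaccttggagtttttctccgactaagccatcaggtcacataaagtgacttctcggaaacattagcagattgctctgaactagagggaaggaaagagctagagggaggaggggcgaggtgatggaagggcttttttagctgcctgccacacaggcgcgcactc
Scn4b, chr8:54343623-54343872, plus strand: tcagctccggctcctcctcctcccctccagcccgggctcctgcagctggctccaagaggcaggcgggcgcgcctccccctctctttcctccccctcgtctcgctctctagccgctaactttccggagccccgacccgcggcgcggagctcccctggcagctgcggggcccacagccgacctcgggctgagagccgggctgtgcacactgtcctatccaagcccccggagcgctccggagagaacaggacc
The motifs, searched on both strands, were the cyclic AMP response element TGACGTCA, its shorter core TGACG, the AP-1 site TGANTCA, the GC box GGGCGG, the TATA box TATAAA and GGACAGC, a part of the site of the repressor REST. Their shares among the 33469 promoters of the same length were 1.59%, 18.2%, 6.34%, 30.5%, 12.9% and 5.3%. TGACGTCA contains TGACG, so these counts overlap. Of the 4 sequences shown, that of Scn3a held 1 match, to the AP-1 motif, and the other 3 held none, which says only that these letters are absent from these windows. The GC content was 39.6% for Scn2a, 41.6% for Scn3a, 52.4% for Scn9a and 71.6% for Scn4b.

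Scn9a, the gene of Nav1.7, a channel best known from sensory neurons and also found in magnocellular neurons, fell in males. The male controls read 134, 150.4, 181, 157 and 237, and the dehydrated males 112, 136, 141, 127 and 110.2. All 5 dehydrated pools lay below the control mean, but the lowest control, at 134, lay below 2 of them. The mean went from 172 ± 40.0 (SD, n = 5) to 125 ± 13.8 (SD, n = 5), a log2 difference of -0.42 ± 0.13 (SE) with a limma adjusted p of 0.0354 and an exact permutation p of 0.0238. The exact p-values given here and for other members are each for 1 probe set and are not adjusted for the number of members. In females the controls read 281, 262, 254 and 305 and the dehydrated pools 208, 214, 225 and 259.9. Only the fourth dehydrated pool reached into the control range. The log2 difference of -0.28 ± 0.11 (SE) did not pass, with a limma adjusted p of 0.20.

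The Scn9a call in males sat close to the threshold. It was lost in 6 of the 10 fits that left out 1 array, those without dehydrated pool 1, 4 or 5 or control pool 3, 4 or 5, with a limma adjusted p of up to 0.085, and under 4 other settings. The control at 237 carried much of the difference: without it the log2 difference was -0.30. In bulk tissue, fewer cells of a type and less RNA per cell cannot be told apart.

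Scn1a, which encodes Nav1.1, a channel prominent in inhibitory interneurons, had the widest female difference of the members tested. The female controls read 127, 224, 178 and 149.9, and the dehydrated females 138, 68.0, 149 and 91.1. All 4 dehydrated pools lay below the control mean of 169.7 ± 41.7 (SD, n = 4), though 2 of them lay above the lowest control. The log2 difference was -0.61 ± 0.23 (SE), with a limma adjusted p of 0.18. It passed in 1 other fit, that of all 4 groups together, at 0.0429. In males the 5 controls lay between 155 and 182 and the 5 dehydrated pools between 131 and 205, and the log2 difference of -0.05 had a 95% interval of -0.27 to 0.16.

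Marker genes of GABAergic neurons had a lower summed signal in the same dehydrated female pools. The summed signal of Gad1, Gad2, Slc32a1 and Dlx1 was 857 to 1014 in female controls and 627 to 806 in dehydrated females, without overlap. None of the 3 markers tested passed in females (Gad1 -0.38, Slc32a1 -0.42, Dlx1 -0.41, limma adjusted p 0.067 or more), and none was listed at 0. In males the sums, 1211 to 1900.1 and 1144 to 1410.2, overlapped. The 4 markers tested there were also on the lower side without passing (Gad1 -0.13, Gad2 -0.40, Slc32a1 -0.20, Dlx1 -0.31, limma adjusted p 0.1675 or more). The part of these markers in the Scn1a values was not tested.

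Scn8a, the gene of Nav1.6, the main alpha subunit of mature initial segments, could not be followed. Its probe set 1369064_a_at gave signals of 1.8 to 14.5 over the 18 arrays and fell below the level filter in both sets. All 4 groups overlapped, and the low signal of 1 probe set says nothing on whether the gene is expressed.

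**Figure D3:**
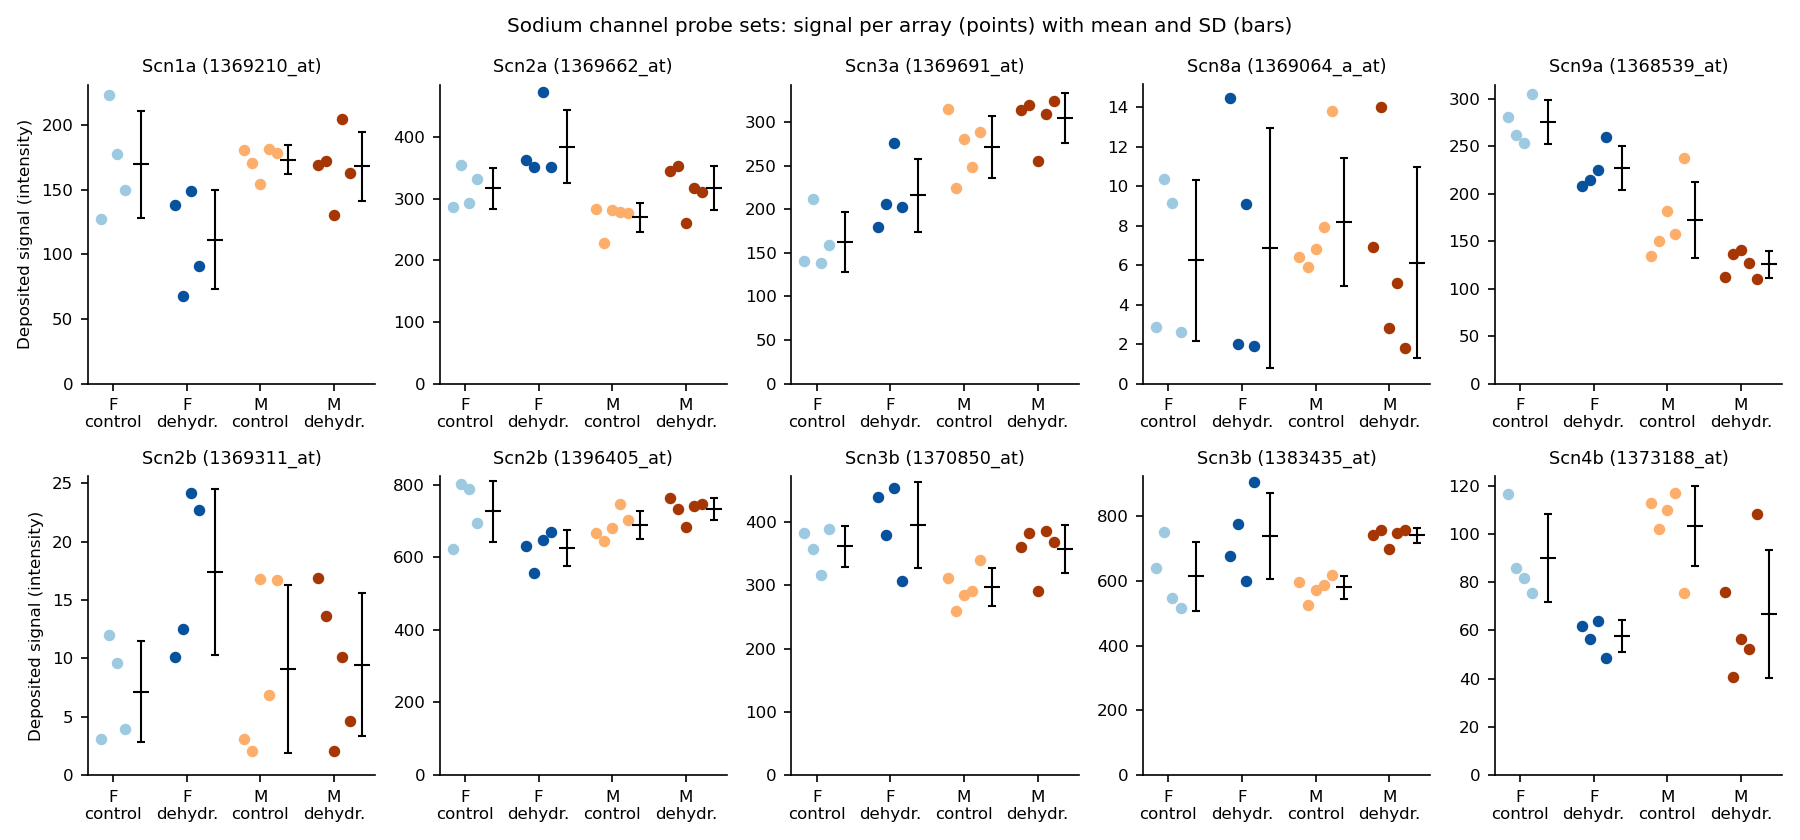
Deposited signal (y axis, linear intensity from 0) of each of the 10 sodium channel probe sets on every array (points), by sex (F, M) and group, with the mean and SD as bars. In males all 5 dehydrated pools of Scn3b (1383435_at), 701 to 758, lie above the 5 controls, 525 to 619, and in females all 4 dehydrated pools of Scn4b lie below the 4 controls.

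Of the beta subunits, Scn3b rose in males. Beta-3 binds its alpha subunit without a covalent bond and modifies its gating. The probe set 1383435_at read 598, 525, 572, 588 and 619 in male controls and 744, 758, 701, 748 and 758 in dehydrated males. Every dehydrated pool lay above every control. The mean went from 580.3 ± 35.3 (SD, n = 5) to 742 ± 23.7 (SD, n = 5), a log2 difference of 0.35 with a 95% interval of 0.24 to 0.47. The limma adjusted p was 0.000575, and the exact permutation p of 0.00794 is the smallest that 5 pools against 5 can give. The call held in all 10 fits without 1 array and in all 9 other settings, with a limma adjusted p of at most 0.0306.

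In females the same Scn3b probe set read 640.5, 753, 548 and 517 in controls and 678, 777, 599 and 905 in dehydrated pools. The highest 2 pools were dehydrated, but 2 controls lay above the lowest dehydrated pool. Dehydrated minus control was 0.26 ± 0.15 (SE) on the log2 scale, with a limma adjusted p of 0.38, and 0.16 without dehydrated pool 4.

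The other Scn3b probe set, 1370850_at, moved the same way in males and just missed the threshold. Its male controls read 311, 259, 285, 291 and 340.5 and the dehydrated males 359.9, 382, 291, 386 and 368. As for Scn2a, dehydrated pool 3 alone lay within the control range. The log2 difference was 0.26 ± 0.09 (SE), with a limma adjusted p of 0.054. It was 0.33 without that pool, with a limma adjusted p of 0.0101. Of the 10 fits that left out 1 male array, 2 passed. Across them the difference went down to 0.21 and the limma adjusted p up to 0.13. Of 9 other settings 3 passed: median centring, array weights and a filter at the 50th percentile (limma adjusted p = 0.0163, 0.0176 and 0.0439). In females the difference was 0.12, with a limma adjusted p of 0.69, and ran from 0.04 to 0.23 with 1 array left out. Over the 18 arrays r between the 2 Scn3b probe sets was 0.25, and -0.25 after centring on group means. The 2 probe sets thus did not track each other array by array.

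Neuronal markers had a higher summed signal on the dehydrated arrays. The sum over 10 markers was 9002 to 10258 in male controls and 10785 to 11600 in dehydrated males, and 8977 to 9733 and 9876 to 10797 in females, without overlap in either set. In males 3 of the 10 rose (Snap25 0.16, Uchl1 0.35 and Tubb3 0.58 on the log2 scale), and Nefl (-0.16), Nefm (-0.06), Rbfox3 (-0.11) and Map2 (-0.00) were on the lower side without passing. In females none passed, and Nefl and Nefm differed by -0.27 and -0.23. The brightest genes weigh most in such a sum. Of 8 magnocellular markers, 2 rose in males (Calb2 0.78, Scg2 0.76) and 3 fell (Cd9 -0.48, Rab3b -0.42, Nnat -0.17). In females 2 rose (Calb2 0.87, Scg2 1.09) and 1 fell (Nnat -0.86). The magnocellular sums overlapped in both sets. The glutamatergic marker Slc17a6 rose by 0.58 in males (limma adjusted p = 1.5e-05). There the sums of its list did not overlap (621 to 664 in controls and 845 to 1029 in dehydrated pools). In females it differed by 0.55 without passing (limma adjusted p = 0.0718), and Slc17a7 by -0.06. No marker of these lists was listed at 0, and their part in the Scn3b rise was not tested.

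Scn4b fell in males. Beta-4 is linked covalently to its alpha subunit, and its intracellular tail can serve as the blocking particle behind resurgent sodium current. The male controls read 113, 102, 110.1, 117 and 75.5, and the dehydrated males 76.0, 40.6, 56.4, 52.2 and 108. In both groups the fifth pool stood apart: the fifth control lay as low as the first dehydrated pool, and the fifth dehydrated pool lay as high as the controls. The mean went from 103 ± 16.6 (SD, n = 5) to 66.7 ± 26.5 (SD, n = 5), a log2 difference of -0.64 ± 0.20 (SE). The limma adjusted p was 0.0338 and the exact permutation p 0.0397.

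In females Scn4b read 116, 86.0, 81.9 and 75.7 in controls and 61.8, 56.6, 63.8 and 48.7 in dehydrated pools. All 4 dehydrated pools lay below all 4 controls. The log2 difference was -0.58 ± 0.16 (SE), with a limma adjusted p of 0.0716. The exact permutation p of 0.0286 is the smallest that 4 pools against 4 can give. Of the 10 other settings 1 passed, that with arrays weighted by their quality, at a limma adjusted p of 0.0345. In females none of the 8 fits that left out 1 array passed, with a limma adjusted p of 0.0725 to 0.171. The male call was lost in 7 of the 10 fits that left out 1 array, those without dehydrated pool 2, 3 or 4 or control pool 1, 2, 3 or 4, with a limma adjusted p of up to 0.0843. It held without pool 5 of either group, with a limma adjusted p of 0.00479 without the dehydrated one and 0.0157 without the control.

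Mural and meningeal markers also fell in males. There 10 of the 10 mural and meningeal markers fell, among them Slc13a4 (-1.48 on the log2 scale) and Col1a2 (-1.27), and their summed signal was 3053 to 6977 in controls and 1546 to 3722 in dehydrated pools, which overlapped. In females 3 of 10 fell, and the sums were 2020.2 to 3171 and 1453 to 1747, without overlap. Of 6 endothelial markers 0 rose and 0 fell in either set, and their sums overlapped in both. These were 1805 to 2406 in controls and 1523 to 2164 in dehydrated pools in males, and 1645 to 1848 and 1582 to 1882 in females. Both blood markers tested, Hbb and Alas2, fell in males, with sums of 1576 to 2154 in controls and 751 to 1070 in dehydrated pools, without overlap, and 1 of 2 fell in females, where the sums overlapped (1267 to 2431 and 732 to 1672). Of microglial markers 3 of 6 fell in males (862 to 1282 and 751 to 974) and 0 of 7 in females (796 to 1110 and 649 to 835). Of 9 astrocyte markers 3 fell in males (16620 to 18192 and 14482 to 17634) and 1 in females (14559 to 16791 and 13727 to 16730). Of 9 oligodendrocyte markers 4 fell in females, with sums of 6877 to 9763 and 3910 to 6780, without overlap, and 0 in males (8587 to 10953 and 7627 to 13090). Of 5 ependymal and choroid plexus markers 2 fell in males (1040.4 to 1465 and 769 to 1266) and 0 in females (848 to 1994 and 878 to 2369). None of these markers was listed at 0, and their part in the Scn9a and Scn4b values was not tested.

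Scn2b, which encodes the covalently linked beta-2 subunit, did not pass in either set. Its probe set 1396405_at read 622, 803, 787 and 694 in female controls and 629.8, 557, 646 and 669 in dehydrated females. All 4 dehydrated pools lay below the control mean. The female difference was -0.21 ± 0.11 (SE) on the log2 scale, with a 95% interval of -0.46 to 0.04 and a limma adjusted p of 0.35. In males the controls read 665, 645.5, 682, 747 and 704 and the dehydrated pools 762, 733, 682, 741 and 748. That difference was 0.09 with a 95% interval of -0.02 to 0.21, so that a male rise above 0.21 lay outside the interval. The second probe set, 1369311_at, gave signals of 2.1 to 24.2 and did not pass the level filter. Its dehydrated females read 10.1, 12.5, 24.2 and 22.7 and the controls 3.11, 12.0, 9.56 and 3.95, values at which its direction cannot be read.

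The female and male effects were compared in 1 fit of all 18 arrays, in which 0.0322% of probe sets passed. No member was among them. The smallest p among the members was that of Scn2b (1396405_at), for which the female effect minus the male effect was -0.30 ± 0.12 (SE), with a limma adjusted p of 0.37. For Scn1a it was -0.56 ± 0.26 (SE), with a limma adjusted p of 0.47. For the members that passed in males, the same difference of effects was 0.07 for Scn4b (95% interval -0.51 to 0.64), 0.14 for Scn9a (-0.23 to 0.51) and -0.09 for Scn3b 1383435_at (-0.41 to 0.23). Each of these 3 intervals includes 0 and is wide beside the effects themselves.

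**Figure D4:**
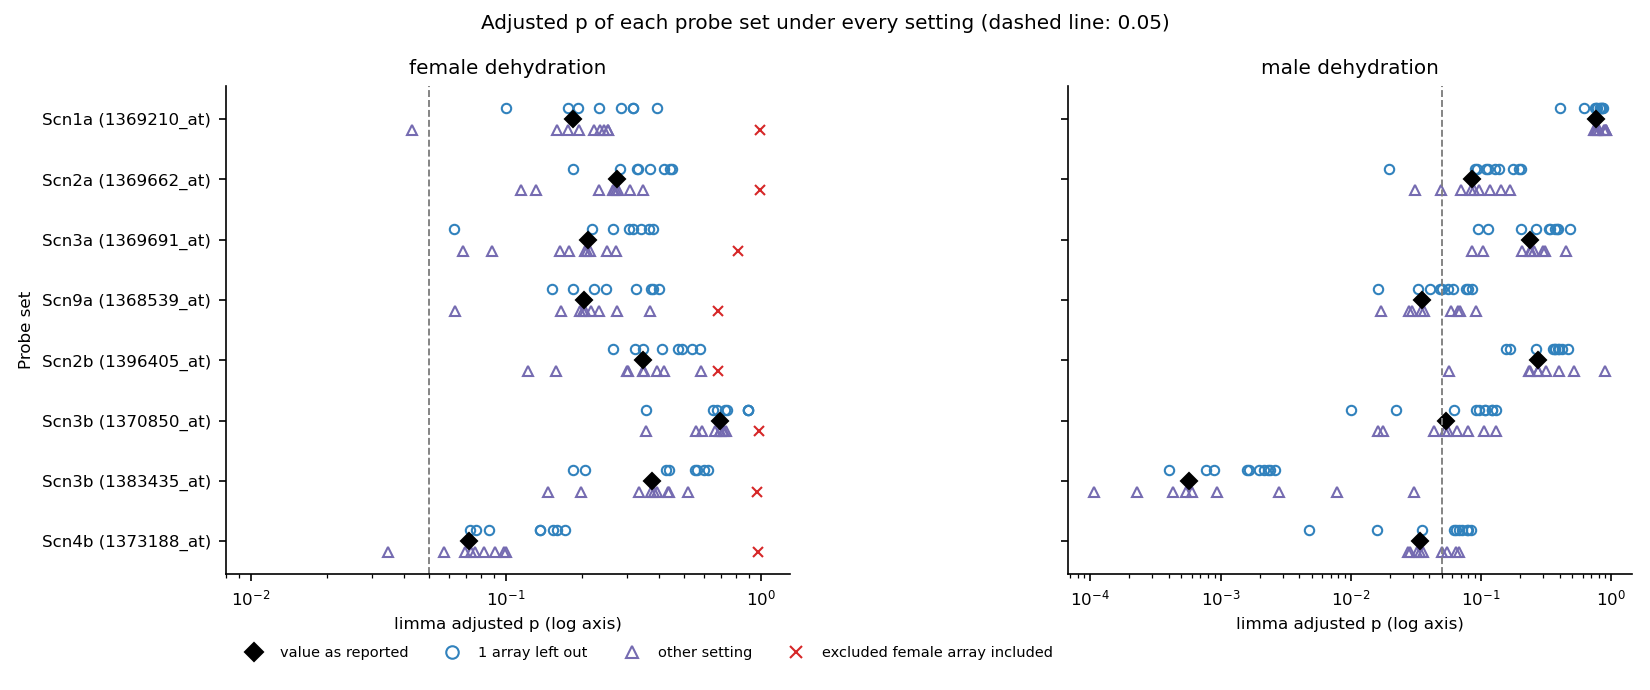
Limma adjusted p (x axis, log scale) of each sodium channel probe set (y axis) as reported (diamonds), with 1 array left out (circles), under other settings (triangles) and with the excluded female array (crosses), with the threshold of 0.05 dashed. Scn3b (1383435_at) in males stays left of the line throughout, at most 0.0306, while Scn9a and Scn4b in males lie on both sides of it.

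Of 8 other sodium channel genes with a probe set, none passed in either set: 6 were tested in females and 5 in males. Scn7a, an atypical channel of glia and some neurons that takes part in sodium sensing, came nearest. Its mean signal was 49.1 ± 6.84 (SD, n = 4) in control and 33.1 ± 6.34 (SD, n = 4) in dehydrated females, and 85.7 ± 35.2 (SD, n = 5) and 54.1 ± 7.14 (SD, n = 5) in males. The log2 differences were -0.50 ± 0.18 (SE) and -0.54 ± 0.20 (SE), with limma adjusted p of 0.16 and 0.0704. In the GRCr8 annotation Scn7a follows Scn1a and Scn9a in an unbroken row on chromosome 3. Nalcn, a sodium leak channel that holds the resting potential, differed by -0.07 in females and -0.10 in males, and Scn10a, tested only in females, by 0.31, with limma adjusted p of 0.78, 0.38 and 0.44. Of the epithelial sodium channel genes, Scnn1a, Scnn1b and Scnn1g differed by -0.36, 0.32 and -0.24 in females and by 0.20, 0.17 and 0.09 in males, with limma adjusted p of 0.30 or more. Scn4a and Scn11a gave group means of at most 9.74 and were not tested.

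Genes of the axon initial segment and node were next listed. In males 4 of 17 genes tested rose and 1 fell, beside 8.32% and 9.38% of all probe sets. The adhesion molecules L1cam and Nfasc rose by 0.41 ± 0.06 and 0.25 ± 0.07 (SE), and the spectrin gene Sptbn1 by 0.14 ± 0.04. Cntnap2, a partner of potassium channels that was named after its value was seen, rose by 0.27 ± 0.08. Mical3 fell by 0.60 on the log2 scale (limma adjusted p = 0.000606). In females none of 16 passed, and the smallest p was that of Sptbn1 (0.29 ± 0.10, limma adjusted p = 0.14). The list's median log2 difference was 0.00 in both sets.

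Among genes that modulate or process the channels, 3 of 23 tested in males rose and none fell, beside 8.32% and 9.38% of all probe sets. Csnk2b, a subunit of the kinase CK2 that promotes binding of sodium channels to ankyrin G, rose by 0.28 ± 0.06 (SE, limma adjusted p = 0.00571). Prkaca, a catalytic subunit of protein kinase A, rose by 0.26 ± 0.07, and S100a10, an annexin partner that carries channels to the membrane, by 0.28 ± 0.09. In females none of 24 passed. The smallest p there was that of Mapk14, the gene of the kinase p38 alpha, at -0.50 ± 0.14 (limma adjusted p = 0.0788). Of the genes that regulate neuronal RNA and channel transcription, none of 12 passed in females and none of 13 in males. The smallest p-values were those of the RNA-binding proteins Elavl3 in females (-0.91 ± 0.24, limma adjusted p = 0.0679) and Mbnl2 in males (-0.16 ± 0.06, limma adjusted p = 0.0686).

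The genes whose values ran most like those of the 3 members that passed were ranked by Pearson's r over the 18 arrays, each set centred on its mean, among 11141 genes. For Scn3b (1383435_at) these were Bex1 (r = 0.95), Mrpl41 (0.93) and Chchd7 (0.93). Bex1 was higher by 0.31 in females and 0.34 in males on the log2 scale, close to the Scn3b differences of 0.26 and 0.35. For Scn4b they were Pxylp1 (0.90), Pcp4l1 (0.88) and Rhbdl3 (0.87), with male differences of -0.56, -0.53 and -0.26 beside -0.64 for Scn4b. For Scn9a they were Cnnm2, Cep57 and Rfx4, each at 0.84. All these arrays include the dehydration contrast, so the ranking describes shared patterns on the same arrays and carries no test.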

How the data were processed

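RNA of pooled supraoptic nuclei was hybridised to Affymetrix arrays. Values are the deposited intensity of each probe set, produced by the authors with GCOS 1.2 (males) or MAS5 (females), per the submitters' processing notes, and had a 2% trimmed mean near 100 on every array. Background and summary settings are not given in the sources used here. Of 24 samples, 19 had values, and the columns of 5 lactating samples were empty.

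All arrays were brought to the same trimmed mean (500), and log2 was taken after adding 32, which understates changes of dim probe sets. The 57 control probe sets were dropped, and 21729 of 31042 probe sets, those with a mean above the 30th percentile, were kept, including 8 of 10 member probe sets. limma 3.58.1 (R 4.3.3; lmFit, then eBayes with a trend) was fitted to each set alone and, for the difference between sets, to 18 arrays, with Benjamini-Hochberg adjustment over the kept probe sets. Member differences were also tested by 2-sided exact permutation. No pair of arrays held identical values. Scripts were tested on simulated data. Signals in the text are the deposited ones, and no level is compared between probe sets.

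In the platform annotation 20826 probe sets had 1 symbol, 436 several and 9780 none. Promoter sequences and gene order are from RefSeq tables of GRCr8. Named genes were all members, the other sodium channel genes, up to 3 rising and 3 falling genes per list and set (or the smallest p where none passed, 1 probe set per gene) and the 3 genes most like each member that passed. The members and lists were chosen with earlier results of these data known. Alternatives were quantile normalization, median centring, other offsets and filters, no trend, array weights, 1 joint fit, adding the excluded array and leaving out each array. Figures were drawn in matplotlib 3.10.9 (Python 3.11.15).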

Additional observations from a re-analysis of the deposited data

Results flagged for a closer look

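In 5 of 40 groups of pools, 1 pool stood far from the others by Dixon's criterion, which chance meets in about 1 of 20 groups. The third dehydrated female pool was the highest for Scn2a (473). The second male control was the lowest for Scn2a (228). The third dehydrated male pool was the lowest for Scn3a (255) and for both Scn3b probe sets (291 on 1370850_at and 701 on 1383435_at). That pool was the lowest of its group on 6 of the 8 member probe sets tested, and the second male control on 5 of 8. In females the second control and the third dehydrated pool were each the highest of their group on 5 of 8.

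The dehydrated female array that was left out of every comparison carried signals above the highest female control for 3 members: Scn1a (883), Scn4b (783) and Scn8a (11.0). The Scn8a signals are dim, with 10.3 in the highest female control and 14.5 in dehydrated female pool 1, so that excess cannot be read. The left-out array had a median correlation with the other female arrays of 0.815, where those arrays correlated with each other at 0.925 to 0.973. Its 10 summed neuronal markers gave 3574, and its choroid plexus and ependymal markers 18276, where the other female arrays gave at most 2369.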

How the results depend on the processing

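Of 512 alternative values of single probe sets, 466 kept their direction and side of the threshold, 20 lost a call, 10 gained one and 16 changed sign. In females, 0 member probe sets passed as reported and 1 with array weights (Scn4b) or in 1 joint fit (Scn1a). In males 3 passed as reported, 1 with quantile normalization, no filter or no trend, 5 with array weights, and 1 to 4 with 1 array left out. With the excluded array, female values turned for Scn3b (-0.028 on 1370850_at and -0.095 on 1383435_at) and Scn4b (0.15), and differences between sets for Scn1a (0.038), Scn2a (-0.21) and Scn9a (-0.22). Male Scn1a turned with median centring (0.024), and ran from -0.126 to 0.030 with 1 array left out. The Scn4b difference between sets turned with quantile normalization (-0.030). With 1 array left out it ran from -0.075 to 0.247, that of Scn2a from -0.060 to 0.10 and that of Scn3b 1383435_at from -0.190 to 0.014. The cause was not tested.

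Over all probe sets, 643 female calls became 290 without a trend, 1709 with array weights, 2322 in the joint fit, 1 with the excluded array and 210 to 886 with 1 array left out. The 3846 male calls became 2270 in the joint fit, and the 7 of the difference 0 to 114. No paired analysis was possible because the dehydrated and male titles carry no replicate numbers. Dim probe sets of Scn8a and Scn2b limit what can be said of them.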
